A study of Mus musculus with 28 samples.

Results

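Sertoli cells, the somatic cells that nurse germ cells inside the seminiferous tubule, were compared between 2 neighbouring parts of the seminiferous cycle, stages I-III (group B) and stages IV-VI (group C). The comparison uses 4 of the 28 libraries of polyadenylated RNA in this mouse series, 2 in each group, taken by their labels and not by any measured value. The mice of both groups, labelled RFP heterozygote and Amh-Cre-positive, carry a red reporter that Cre switches on under the Amh promoter, which is active in Sertoli cells. Their strain label is C57BL/6 x 129s4/SvJae. All received WIN 18,446, which blocks the making of retinoic acid, for 7 days and 1 injection of retinoic acid (RA) on the next day. They were taken 42 to 50 days later, and RFP-positive cells were sorted from fresh testis. Groups were named by the stages that were most enriched, so each holds neighbouring stages too. Nothing in the labels says whether the 2 libraries of a group come from separate animals, so a p-value here measures the spread between libraries, which may be technical. The other sorted groups, D (stages VII-VIII), E (IX-X) and A (XI-XII), had the same labels apart from the strain of group A replicate 1, and the remaining 18 libraries come from whole testis of the NANOS2 KO (CD1 background), which lacks germ cells, on 9 days after the same treatment.

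As background, the epithelium of the seminiferous tubule passes through a repeating series of stages, each with its own set of germ cell types. Sertoli cells stay in place while the germ cells around them change, and they alter their gene expression in step, with androgen, retinoic acid and contact with germ cells among the known inputs. Stages I-III hold a young generation of round spermatids beside elongated spermatids of the older generation, and in stages IV-VI the older generation moves towards release while the acrosome of the younger one spreads over the nucleus.

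Between stages I-III and IV-VI, 6 genes rose and 2 fell of 14331 tested with edgeR's quasi-likelihood test at an adjusted p under 0.05. That is 0.0558% of the genes tested, 0.0419% upward and 0.014% downward. The genes that rose were Actn3, Tmem140, S100a1, Ndrg4, Rhox5 and Ppp1r16b, and those that fell were Unc5a and Noxred1. Fitted folds ran from 3.83 for Ppp1r16b to 13.8 for Actn3 upward, Tmem140 aside, which had only 3 counts in group B, and were 4.42 for Unc5a and 5.35 for Noxred1 downward. All 8 are protein-coding and lie on 8 different chromosomes.

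Promoter sequence is shown for the gene with the smallest p, S100a1, and for the 3 called genes with AGAACA in a RefSeq window. These letters, sought on either strand, are the core of a steroid receptor element. Each run is the 250 bases before a RefSeq start in GRCm38.p6, read 5′ to 3′ in the direction of the gene, and capitals mark AGAACA or its reverse TGTTCT and the GATA letters AGATAA or their reverse TTATCT.
S100a1 (chr3:90514331-90514580, minus strand): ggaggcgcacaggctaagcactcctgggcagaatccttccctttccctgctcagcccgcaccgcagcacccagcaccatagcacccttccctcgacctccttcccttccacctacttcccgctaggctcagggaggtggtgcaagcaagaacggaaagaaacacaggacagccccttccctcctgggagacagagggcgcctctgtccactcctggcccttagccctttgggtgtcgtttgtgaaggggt
Ppp1r16b, first start (chr2:158666483-158666732, plus strand): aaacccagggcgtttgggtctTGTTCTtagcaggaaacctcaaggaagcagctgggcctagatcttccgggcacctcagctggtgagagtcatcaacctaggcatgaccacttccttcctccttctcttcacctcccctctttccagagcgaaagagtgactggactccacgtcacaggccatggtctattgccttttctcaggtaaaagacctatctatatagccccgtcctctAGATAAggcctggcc
Rhox5 (chrX:37754358-37754607, plus strand): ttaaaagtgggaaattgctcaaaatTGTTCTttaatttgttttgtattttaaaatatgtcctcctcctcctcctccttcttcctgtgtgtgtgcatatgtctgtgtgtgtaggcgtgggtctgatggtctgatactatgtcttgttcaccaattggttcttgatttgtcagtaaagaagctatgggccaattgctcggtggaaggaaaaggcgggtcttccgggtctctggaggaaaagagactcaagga
Noxred1 (chr12:87238602-87238851, minus strand): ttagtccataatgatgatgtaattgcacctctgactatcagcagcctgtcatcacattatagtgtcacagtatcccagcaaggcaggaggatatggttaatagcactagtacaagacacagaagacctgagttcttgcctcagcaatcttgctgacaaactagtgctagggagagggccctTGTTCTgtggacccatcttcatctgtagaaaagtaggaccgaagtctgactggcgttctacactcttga

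Promoter entries were found for 7 of the 8 genes, in 11 windows since Ndrg4 and Ppp1r16b have several starts. AGAACA stood in 3 of the 11 windows, each of another gene, beside 11.1% of the 12930 windows of all genes tested. The nuclear receptor motif AGGTCA (reverse TGACCT) was in 1 window, of Ndrg4, against 11.6% of windows, and the E-box CACGTG, its own reverse, was in the same Ndrg4 window, against 8.33%. AGATAA was in 1 window, of Ppp1r16b, against 5.65%, and the SOX letters ACAATG (reverse CATTGT) were in none, against 7.22%. None of these matches overlaps another. A match describes the letters in the window and is not a site in use. The RefSeq start of Rhox5, at chrX:37754608, lies far upstream of the gene as GENCODE M21 draws it, at chrX:37804842-37808876. The Rhox5 window, 1 of the 3 with AGAACA, therefore belongs to a start that GENCODE does not show. It is not next to the GENCODE gene. Actn3 is named without a promoter.

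The 4 libraries differed in depth and in likeness. Total counts were 1901743 and 3121146 in B replicates 1 and 2 and 2757876 and 3282315 in C replicates 1 and 2, so that 3 counts, the limit a count of 0 allows, equal 0.914 to 1.58 CPM, counting error only. CPM are counts scaled to a fixed library total, and the CPM of single genes below also use TMM scaling, which corrects the totals for differences in composition. Mitochondrially encoded genes took 9.17 and 6.38% of the counts in B and 4.71 and 7.09% in C. Replicates stood as far apart as neighbouring groups did. Between B replicates 13.3% of tested genes differed by 2-fold or more in CPM, and between C replicates 17.2%. C replicate 1 differed by this measure in 23.0% from B replicate 1 and in 14.3% from B replicate 2, and C replicate 2 in 17.7 and 13.1%. C replicate 2 lay closest to D replicate 2, with 10.3%, where C replicate 1 had 20.7%, and B replicate 1 lay closest to A replicate 1, with 8.41%. Sertoli genes were present in all 4 libraries beside transcripts of germ cells. The 26 genes of the Sertoli identity list took 1.08 and 1.02% of the counts in B and 0.936 and 1.48% in C, less in each library than the elongating spermatid list given below, and Inhba of that list had 0 counts. The transcription factors Sox9, Wt1 and Gata4 ran from 70.2 to 144 CPM, from 251 to 343 CPM and from 111 to 213 CPM, and the secreted protein gene Clu from 2781 to 6673 CPM.

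Actn3 encodes alpha-actinin-3, an actin cross-linker best known from fast muscle fibres, and lies at chr19:4861216-4877909. Its level was 13.4 and 31.8 CPM in B replicates 1 and 2 and 138 and 500 CPM in C. Both C libraries lay above both B libraries, and C replicate 1 was far below C replicate 2. The log2 change was 3.78 ± 0.55 (SE), with an edgeR adjusted p of 0.0361.

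S100a1 encodes a small calcium-binding protein of the S100 family that is abundant in heart muscle, and lies at chr3:90511034-90514392. It had 20.3 and 23.0 CPM in B and 129 and 224 CPM in C. The B libraries were close together and both C libraries lay far above them. The log2 change was 3.02 ± 0.35 (SE), the smallest p of all genes, with an edgeR adjusted p of 0.0162.

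Ndrg4, at chr8:95676980-95715119, belongs to the NDRG family, whose members are studied in cell growth and differentiation. It was measured at 47.6 and 85.3 CPM in B and at 291 and 417 CPM in C, with no overlap. The log2 change was 2.40 ± 0.33 (SE) and the edgeR adjusted p 0.0361.

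Rhox5 is a homeobox gene of the X-linked reproductive cluster and a standard androgen-responsive gene of Sertoli cells. Its level was 106 and 157 CPM in B and 551 and 663 CPM in C. The C libraries were close to each other and far above both B libraries. The log2 change was 2.21 ± 0.32 (SE), with an edgeR adjusted p of 0.0361.

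Ppp1r16b, at chr2:158665398-158766334, encodes a membrane-bound regulatory subunit of protein phosphatase 1. Its level was 28.9 and 36.6 CPM in B and 96.6 and 156 CPM in C. The groups did not overlap, and the log2 change of 1.94 ± 0.31 (SE) was the smallest of the 6 rises, with an edgeR adjusted p of 0.0465.

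Tmem140, a gene for a transmembrane protein at chr6:34863146-34874946, was near the limit of detection in B. It had 0.535 and 0.649 CPM in B, 3 counts in all, and 10.5 and 13.7 CPM in C, 74 counts in all. From these counts and the scaled depths the ratio was 20.2 (6.65 to 100, exact 95% counting interval), and the fitted log2 change of 4.26 ± 0.63 (SE; edgeR adjusted p = 0.0361) depends on how so few counts are fitted. Of its exon bases in GENCODE M21, 37.0% are shared with Cyren on the other strand, and strand use in the counting is not given, so reads of the 2 genes cannot be told apart there.

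Unc5a, at chr13:54949411-55006018, encodes a receptor for netrins, secreted guidance proteins. It had 50.8 and 48.0 CPM in B and 8.78 and 13.4 CPM in C. The B libraries were almost equal and both C libraries lay far below them. The log2 change was -2.14 ± 0.32 (SE), with an edgeR adjusted p of 0.0361. Its overlap with Hk3 on the other strand is 0.8% of its exon bases.

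Noxred1, at chr12:87221040-87238732, is named for an oxidoreductase domain that uses NADP. It had 66.9 and 33.4 CPM in B and 9.48 and 9.06 CPM in C. The B libraries were uneven, the C libraries were almost equal, and both B libraries lay above both C libraries. The log2 change was -2.42 ± 0.38 (SE) and the edgeR adjusted p 0.0465.

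**Figure D1:**
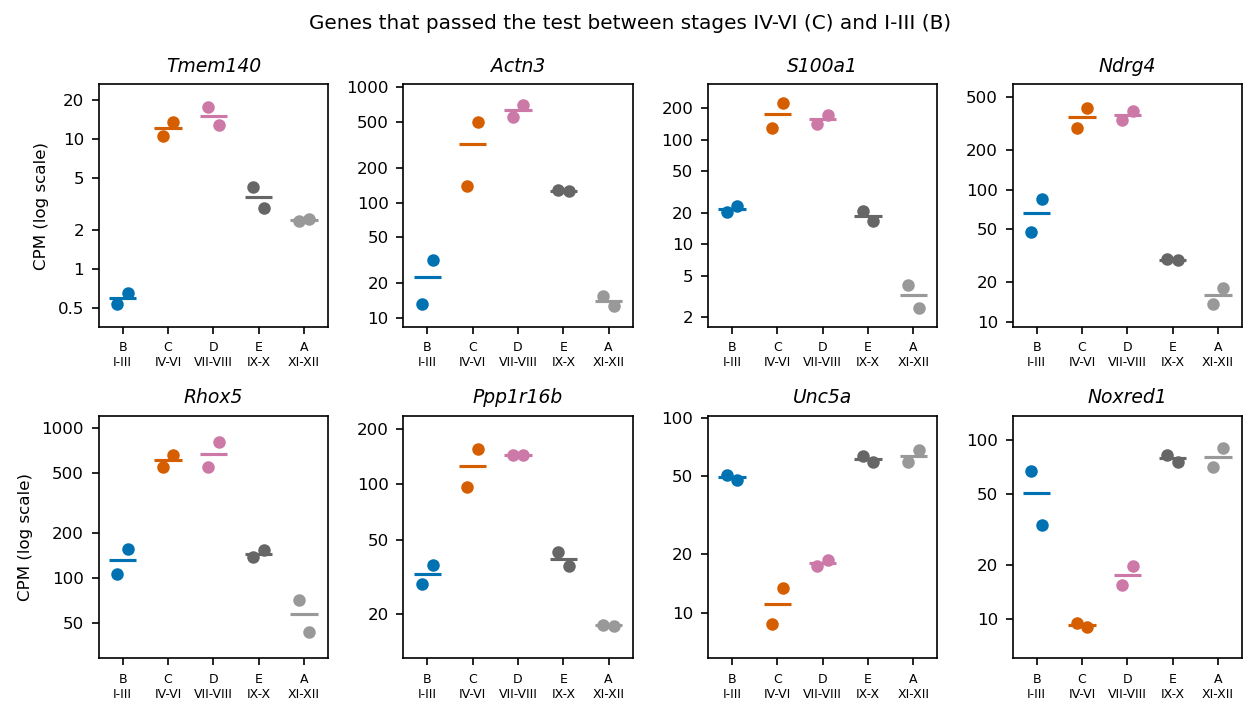
Level of each of the 8 called genes (CPM, log scale) in the 10 sorted libraries, 1 point per library and a bar at the mean of 2, with stage groups in the order of the cycle from B. The C and D libraries lie above the B libraries in 6 genes and below them in Unc5a and Noxred1; for Actn3, C replicate 1 lies nearer to group E than to group D.

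Myl6b, a myosin light chain gene, had 87.8 and 147 CPM in B and 422 and 592 CPM in C, with no overlap, but its log2 difference of 2.11 ± 0.39 (SE) missed the threshold with an edgeR adjusted p of 0.0779.

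Over the rest of the cycle the 6 genes had levels in group D near to or above those in C, and lower levels in groups E and A. Actn3 had 553 and 701 CPM in D, 128 and 126 CPM in E and 15.6 and 12.6 CPM in A. Rhox5 had 547 and 797 CPM in D, 137 and 154 CPM in E and 71.8 and 44.0 CPM in A. Ndrg4 had 338 and 397 CPM in D, 29.7 and 29.3 CPM in E and 13.7 and 17.9 CPM in A. These 3 genes differ in how low they were outside C and D, since Actn3 in E was above its B level and Ndrg4 in E was below it. S100a1 had 139 and 172 CPM in D, 20.7 and 16.7 CPM in E, as in B, and 4.11 and 2.44 CPM in A. Ppp1r16b had 144 CPM in both D libraries, 43.0 and 36.4 CPM in E and 17.4 and 17.3 CPM in A. Tmem140 had 17.7 and 12.8 CPM in D, 4.30 and 2.93 CPM in E, and 2.35 and 2.44 CPM in A. Its measured level was lowest in B, where it rests on 3 counts. The log2 difference of B minus A, -1.93 ± 0.71 (SE), missed the threshold.

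The 2 genes that fell were low in C and D and high in the other 3 groups. Unc5a had 17.3 and 18.7 CPM in D, 63.7 and 59.0 CPM in E and 59.0 and 68.0 CPM in A. Noxred1 had 15.5 and 19.7 CPM in D, 82.1 and 75.3 CPM in E and 70.8 and 90.4 CPM in A. In the same fit none of the 8 genes passed between D and C, where 0.628% of all genes did, nor between B and A, where 0.00698% did. The log2 differences of B minus A closest to the threshold were those of S100a1, at 2.72 ± 0.40 (SE, edgeR adjusted p = 0.0721), and Ndrg4, at 2.08 ± 0.34 (SE, edgeR adjusted p = 0.0793). Both genes were higher in B than in A. All 8 passed between C and A, with edgeR adjusted p from 4.9e-05 for S100a1 to 0.0136 for Tmem140, where 4.21% of all genes did. These steps share the B or C libraries with the comparison of C and B, so their values are not independent of it.

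In whole testes without germ cells, whose deposited CPM were scaled apart from those of the sorted cells, so that only rough levels can be set side by side, the genes fell into different patterns. Over 18 libraries the lowest, median and highest level was 37.3, 87.6 and 158 CPM for Actn3 and 51.9, 77.3 and 135 CPM for Rhox5. S100a1 had 13.9, 20.99 and 74.0 CPM there, Ndrg4 had 7.03, 24.3 and 61.4 CPM, and Ppp1r16b had 15.4, 30.8 and 62.1 CPM. Every library of these 4 genes, Rhox5, S100a1, Ndrg4 and Ppp1r16b, was below both C libraries. Tmem140 had 4.12, 7.93 and 14.1 CPM, above its level in both B libraries. Unc5a ranged from 5.99 over a median of 29.6 to 80.4 CPM. Noxred1 had a median of 0.387 CPM and at most 1.24 CPM, below each of the 10 sorted libraries.

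**Figure D2:**
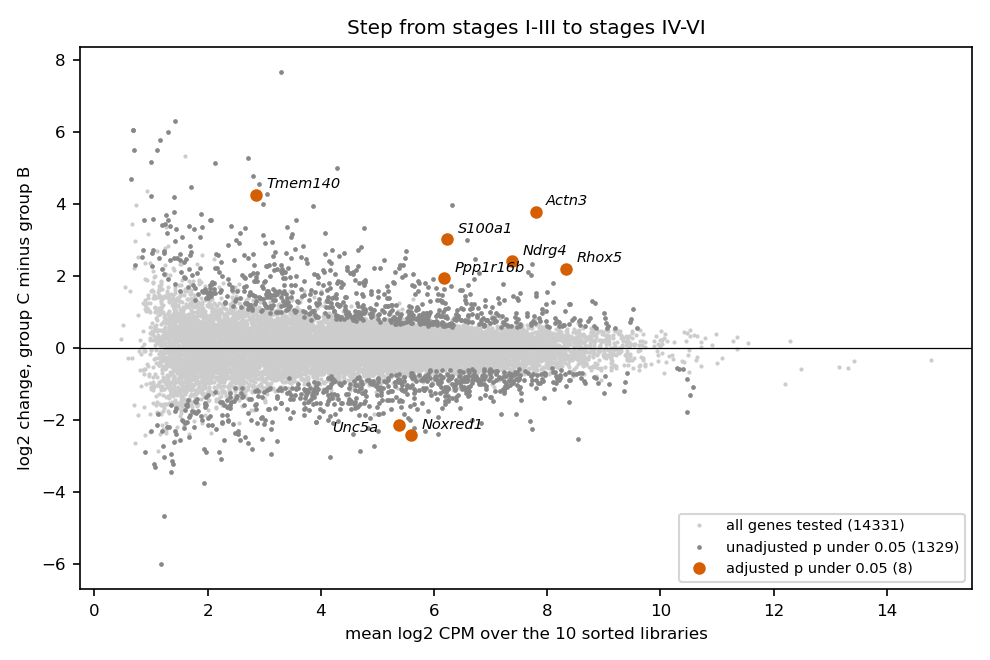
Log2 difference between group C and group B against mean log2 CPM over the 10 sorted libraries, 1 point for each of 14331 genes. The 8 called genes are named; darker points are the 1329 genes with an unadjusted p under 0.05.

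Beyond the called genes the distribution was broad. At an unadjusted p under 0.05 stood 1329 genes (9.27%), of which 709 (4.95%) were higher in C and 620 (4.33%) lower. Both C libraries lay above both B libraries in 2800 genes (19.5%) and below them in 2461 (17.2%), and the median log2 difference over all genes was 0.03. The rest of the description therefore gives values, and a list's counts are to be read against these shares. In genes named below for a small p in this comparison, a lack of overlap was likely beforehand.

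Among genes averaging a log2 CPM of 4 or more, with an unadjusted p under 0.01,, the 12 largest differences upward were those of Actn3 and S100a1 with 10 that missed the threshold. In many of these the 2 C libraries disagreed. Stra6, the cell surface receptor that takes up retinol, had 5.35 and 4.86 CPM in B and 8.43 and 151 CPM in C, a log2 difference of 3.97 ± 0.93 (SE; edgeR adjusted p = 0.124). C replicate 1 was near the B level and C replicate 2 near that of D, which was 234 and 209 CPM. Clstn3, a calsyntenin gene, had 8.03 and 8.43 CPM in B and 5.97 and 126 CPM in C, so that C replicate 1 was below both B libraries. Syt13, a synaptotagmin gene, had 0.535 and 0.324 CPM in B, 2 counts in all, and 2.11 and 25.6 CPM in C, 88 counts in all, a ratio of 36.0 (9.68 to 302, exact 95% counting interval). It was far higher in C replicate 2 than in C replicate 1.

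The C libraries were closer in others. Galnt18, of the family that starts O-linked sugar chains, had 3.21 and 8.76 CPM in B and 23.2 and 59.4 CPM in C (edgeR adjusted p = 0.0873). Apcdd1, an inhibitor of Wnt signalling, had 10.2 and 20.1 CPM in B and 47.4 and 128 CPM in C (adjusted p = 0.0779). Clic6, of the chloride intracellular channel family, had 8.56 and 9.08 CPM in B and 29.1 and 85.0 CPM in C (edgeR adjusted p = 0.0965). None of these 3 overlapped between the groups, which their selection by p in this comparison made likely. A further 3, Prss35, Ankrd13d and Dlg3, had log2 differences of 2.71, 2.61 and 2.56, with C replicate 2 the highest of the 4 libraries in each. Prss35 had 4.28 and 1.30 CPM in B and 9.13 and 24.4 CPM in C, and Dlg3 2.68 and 8.43 CPM in B and 20.7 and 48.7 CPM in C. Ankrd13d had 3.75 and 4.22 CPM in B and 9.13 and 40.0 CPM in C, so its C libraries were far apart.

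The 12 largest differences downward were Noxred1 and 11 genes that missed the threshold. Here the B libraries were uneven. Lgals1, which encodes the sugar-binding protein galectin-1, had 624 and 244 CPM in B and 48.1 and 102 CPM in C, a log2 difference of -2.53 ± 0.46 (SE; edgeR adjusted p = 0.0779). The testis serine protease genes Prss51 and Prss52 had 24.1 and 6.81 CPM and 29.4 and 3.89 CPM in B, and 1.40 and 2.19 CPM and 1.40 and 2.81 CPM in C. In both genes B replicate 1 was high and B replicate 2 was nearer to the C libraries. Prss58 had 94.7 and 47.4 CPM in B and 17.5 and 10.9 CPM in C (edgeR adjusted p = 0.0779), and Olig1, a transcription factor gene, 48.2 and 20.8 CPM in B and 7.02 and 7.50 CPM in C (adjusted p = 0.0779). The other 7, Cmbl, Cypt1, Gda, Ncmap, Tmem255a, Lrrc75a and Noxred1, had log2 differences from -2.73 to -2.22, and B replicate 1 was the highest of the 4 libraries in each. In testes without germ cells the median level was 0 CPM for Prss51, Prss52, Prss58 and Cypt1, and 49.9 CPM for Lgals1.

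**Figure D3:**
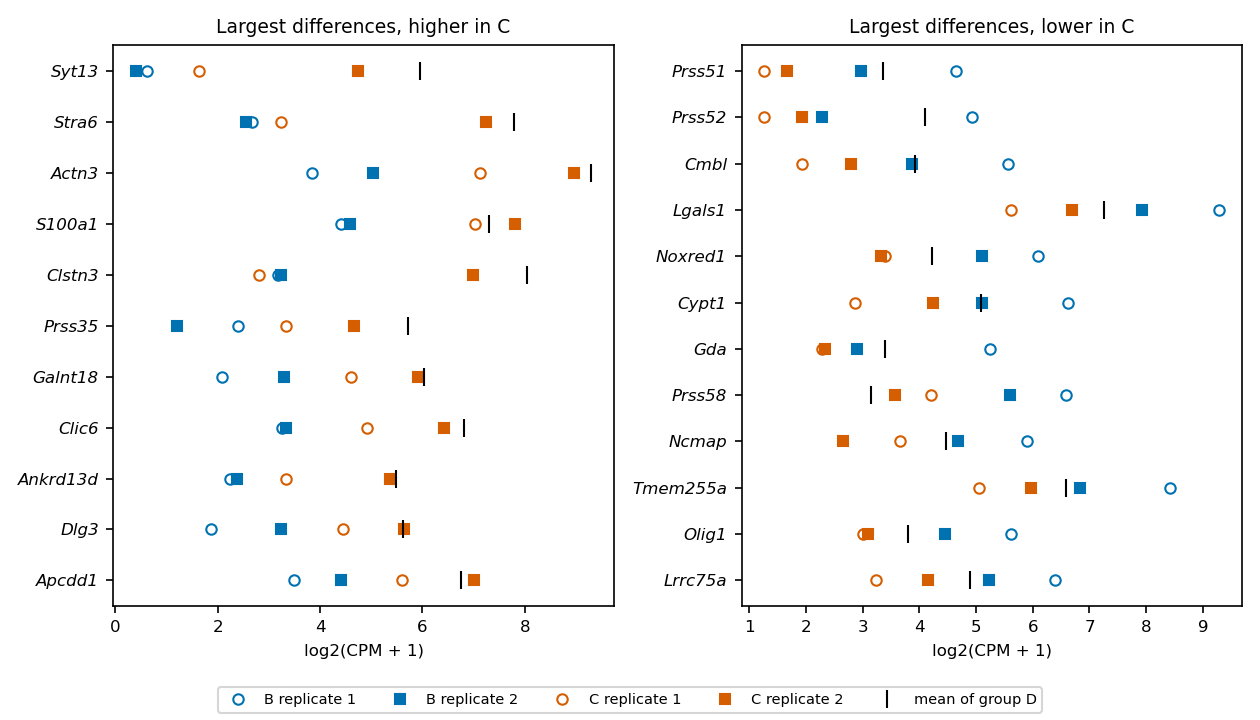
Level, as log2(CPM + 1), in the 4 libraries of groups B and C and the mean of group D for 11 of the 12 largest differences upward and the 12 largest downward among genes with an unadjusted p under 0.01 and an average log2 CPM of 4 or more. In the left panel C replicate 2 (filled orange) lies nearer to the mean of group D than C replicate 1 (open orange) in every gene but S100a1, and in the right panel B replicate 1 (open blue) is the highest of the 4 libraries in all 12 genes.

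By role, the androgen-responsive list held 10 genes, of which Rhox5 rose and none fell. Rhox5 was known to move before the list was chosen, so its rise is not a result of the list. In all, 5 members, Rhox5 among them, had an unadjusted p under 0.05 upward and none downward. Its median log2 difference was 0.52. Drd4, a dopamine receptor gene, had 9.63 and 14.6 CPM in B and 16.5 and 99.3 CPM in C (edgeR adjusted p = 0.208), and C replicate 1 was close to B replicate 2.

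None of the 25 tested Sertoli identity genes passed. Their median was 0.15, with both C libraries above both B libraries in 6 and below in 1. Rhox8, another homeobox gene of the X-linked cluster, had 336 and 235 CPM in B and 524 and 437 CPM in C, and Gata1, a Sertoli transcription factor known to vary with stage, had 103 and 68.1 CPM in B and 88.1 and 220 CPM in C. Their edgeR adjusted p were 0.409 and 0.509, and Gata1 overlapped between the groups.

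The S100 and NDRG families, listed because S100a1 and Ndrg4 were known to move, had 8 of 14 members tested, of which those 2 rose. S100b, the brain relative of S100a1, had 1.61 and 0.324 CPM in B and 14.4 and 13.4 CPM in C, with a log2 difference of 4.01 ± 0.67 (SE; edgeR adjusted p = 0.0692); it is named after its values were seen. S100a10 went the other way, with 46.5 and 37.9 CPM in B and 15.1 and 24.4 CPM in C (edgeR adjusted p = 0.282). The S100 family thus held members with higher and a member with lower values in C. Of 24 tested actin cross-linkers and myosins Actn3 alone passed, which was also known to move, and the list's median was 0.03. Espn, which bundles actin at the ectoplasmic specialisation that holds spermatids, had 1667 and 2018 CPM in B and 1298 and 1226 CPM in C (edgeR adjusted p = 0.526).

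No gene of the retinoid list passed among 17 tested, and its median was 0.03. Aldh1a2, which makes retinoic acid, had 34.3 and 37.9 CPM in B and 74.4 and 147 CPM in C, a log2 difference of 1.61 ± 0.44 (SE; edgeR adjusted p = 0.199). Aldh1a3, another enzyme of the same step, had 42.3 and 23.0 CPM in B and 14.4 and 16.6 CPM in C (edgeR adjusted p = 0.411). The groups did not overlap in either gene, and the 2 enzymes differed in direction.

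The glutathione list had no called gene among 19 tested, with 4 members at an unadjusted p under 0.05, all higher in C, and both C libraries above both B in 7 and below in 1. Gsta2, a glutathione transferase, had 29.4 and 42.5 CPM in B and 143 and 109 CPM in C, a log2 difference of 1.80 ± 0.32 (SE; edgeR adjusted p = 0.0779), and its neighbour Gsta1 1.61 and 2.27 CPM in B and 8.07 and 12.8 CPM in C (adjusted p = 0.136). Reads of these near-identical transferases may be shared between them. In the choline and lipid droplet list, also with 0 of 19 called, Pcyt1b, an enzyme of phosphatidylcholine synthesis, had 19.3 and 28.2 CPM in B and 68.1 and 76.2 CPM in C (edgeR adjusted p = 0.0873). Abhd5, the partner protein of the main triglyceride lipase, had 183 and 128 CPM in B and 61.4 and 59.4 CPM in C (edgeR adjusted p = 0.104). Plin2, which coats lipid droplets, had 19.3 and 32.8 CPM in B and 36.2 and 68.4 CPM in C (adjusted p = 0.416). The cholesterol list, with 19 tested, had a median of -0.10 and no called gene.

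The protease list had no called gene among 20, with 3 members higher and 5 lower at an unadjusted p under 0.05. Tmprss6 had 3.21 and 6.81 CPM in B and 19.7 and 36.9 CPM in C, and Adam8 9.63 and 15.9 CPM in B and 46.3 and 61.8 CPM in C, with edgeR adjusted p of 0.115 and 0.137. Both encode membrane-bound proteases, and in both the groups did not overlap. Among 19 junction genes, 0 called, the blood-testis barrier gene Cldn11 had 676 and 591 CPM in B and 815 and 1060 CPM in C, and the adhesion genes Pvrl3 and Jam3 had 110 and 94.4 CPM and 171 and 110 CPM in B against 64.6 and 46.9 CPM and 69.9 and 82.5 CPM in C. Their edgeR adjusted p ran from 0.277 to 0.522.

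None of the 22 engulfment and lysosome genes passed. Mfge8, which bridges dying cells to their engulfing neighbours, had 118 and 178 CPM in B and 189 and 417 CPM in C (edgeR adjusted p = 0.34), Dock1, an engulfment regulator, 72.8 and 29.5 CPM and 16.1 and 21.2 CPM (adjusted p = 0.309), and the lysosomal protease gene Lgmn 343 and 251 CPM and 169 and 207 CPM (adjusted p = 0.43). Of 22 glucose and lactate genes none passed. Slc16a3, a lactate exporter, had 4.82 and 13.3 CPM in B and 26.0 and 55.3 CPM in C (edgeR adjusted p = 0.166), and Slc2a8, a glucose transporter gene, 47.6 and 68.1 CPM in B and 40.0 and 22.5 CPM in C (adjusted p = 0.482). Of 9 Notch genes none passed; Notch1 had 5.35 and 13.9 CPM in B and 14.0 and 85.6 CPM in C, again with C replicate 1 close to B.

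Only 3 of 12 niche growth factors could be tested, and none passed; Kitl, the ligand of the Kit receptor, had 42.8 and 37.0 CPM in B and 36.9 and 30.0 CPM in C, and Vegfa 17.1 and 12.7 CPM in B and 15.8 and 22.8 CPM in C. The 18 immediate early genes and the 20 cell cycle genes had no called member and none at an unadjusted p under 0.05, with medians of -0.13 and 0.10. Jun had 88.3 and 80.4 CPM in B and 56.9 and 120 CPM in C, Jund 59.9 and 65.5 CPM in B and 48.5 and 65.3 CPM in C, Mcm7 130 and 194 CPM in B and 243 and 146 CPM in C, and Cdk1 118 and 78.8 CPM in B and 51.3 and 75.3 CPM in C. The first 3 overlapped between the groups.

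**Figure D4:**
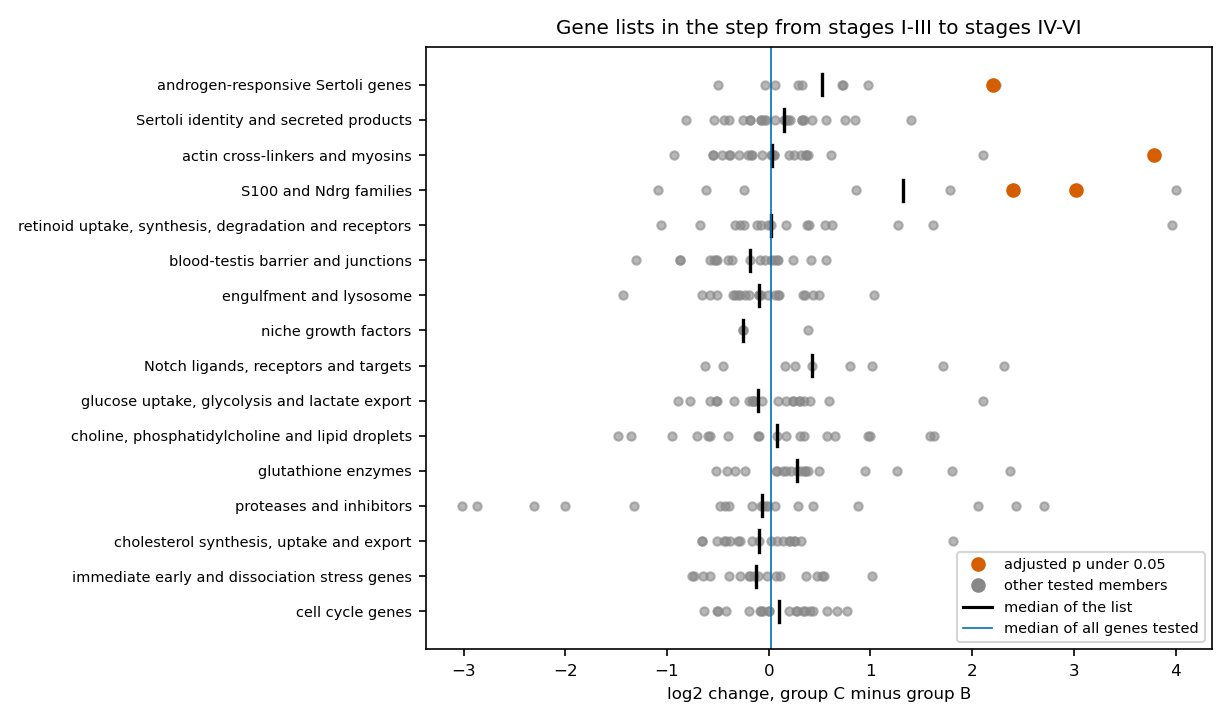
Log2 difference between group C and group B for each tested member of 16 gene lists, with the median of each list (black bar) and of all genes tested (blue line). Orange points are the called genes Rhox5, Actn3, Ndrg4 and S100a1, all known to move when the lists were chosen. The list of the S100 and NDRG families has the highest median, 1.32. It was drawn up because S100a1 and Ndrg4 were known to move, and 8 of its 14 members were tested, so its rank is not a finding about the families.

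Transcripts of germ cells were present in all 4 libraries, as summed shares of all counts of marker lists. The 17 elongating spermatid genes took 1.71 and 2.03% in B and 1.10 and 1.56% in C, and 0.415 and 0.556% in D. None of the 16 tested passed; both C libraries were below both B libraries in 5 and above in 0. Tnp1 and Tnp2, the transition proteins that replace histones, had 2314 and 1838 CPM and 2580 and 1708 CPM in B, and 829 and 863 CPM and 665 and 577 CPM in C, with edgeR adjusted p of 0.0877 and 0.0965. Prm2, a protamine gene that follows them, had 2899 and 3991 CPM in B and 2121 and 4617 CPM in C, with overlap. The list's share was thus lower in C than in B in both libraries, and lower still in D. Unc5a and Noxred1 were also lower in C than in B. In each, both D libraries lay above both C libraries. Their log2 differences of D minus C, 0.69 and 0.93, missed the threshold (edgeR adjusted p = 0.45 and 0.38). Unc5a was detected in each testis without germ cells, and Noxred1 was at or near 0 there. Whether the list's share and these 2 genes are linked was not tested.

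The 19 spermatocyte genes took 0.3105 and 0.366% in B and 0.410 and 0.301% in C, with overlap. Piwil1, a meiotic partner of small RNAs, had 62.1 and 73.9 CPM in B and 209 and 148 CPM in C, and Tex101 28.4 and 37.6 CPM in B and 127 and 82.2 CPM in C, with edgeR adjusted p of 0.271 and 0.277. The 15 round spermatid genes took 0.0795 and 0.0956% in B and 0.0524 and 0.0879% in C, and Catsper3, a sperm calcium channel gene, had 2.14 and 8.76 CPM in B and 16.1 and 30.3 CPM in C while Tssk2, a spermatid kinase gene, had 290 and 243 CPM in B and 107 and 172 CPM in C. The 15 spermatogonial genes took 0.0858 and 0.0685% in B and 0.0499 and 0.0613% in C. Etv5, also a Sertoli gene, had 266 and 255 CPM in B and 188 and 158 CPM in C, and Utf1 2.14 and 2.59 CPM in B and 2.81 and 16.9 CPM in C. No member of these 3 lists passed the test.

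Markers of the other testis cells were sparse. The 9 Leydig genes took 0.00894 and 0.00785% in B and 0.00693 and 0.0328% in C, most of it Ptgds with 70.1 and 56.1 CPM in B and 40.7 and 298 CPM in C, and the defining genes Insl3 and Lhcgr had 0 counts in all 4 libraries. Hsd3b1 had 0.535 and 1.30 CPM in B and 10.5 and 6.87 CPM in C (edgeR adjusted p = 0.117). The 9 myoid genes took 0.0918 and 0.0998% in B and 0.0765 and 0.0864% in C, where Actg2 had 179 and 279 CPM in B and 134 and 139 CPM in C and Lmod1 2.14 and 2.59 CPM in B and 6.67 and 5.62 CPM in C. The 9 macrophage genes took 0.0389 and 0.0376% in B and 0.0267 and 0.0222% in C, nearly all from Aif1 and Mrc1, which had 190 and 247 CPM and 200 and 121 CPM in B, and 157 and 106 CPM and 96.6 and 114 CPM in C. The 7 endothelial genes took at most 0.0038% in any of the 4 libraries and the 7 stroma genes at most 0.0125%, where Lum had 0 counts, Fbln1 had 77.6 and 78.8 CPM in B and 47.0 and 77.8 CPM in C, and Col1a2 6.42 and 13.3 CPM in B and 22.8 and 16.9 CPM in C. Of the endothelial genes Tek had 1 count in B and 19 in C, a ratio of 15.5 (2.47 to 646, exact 95% counting interval). The blood list took 0.0543 and 0.0946% in B and 0.0711 and 0.0442% in C, from Alas2, with 550 and 953 CPM in B and 686 and 448 CPM in C. No tested member of these 6 lists passed. The shares of the elongating spermatid, spermatogonial, myoid and macrophage lists were lower in both C libraries than in both B libraries, and that of the endothelial list higher. Their part in the called changes was not tested. In testes without germ cells, scaled apart, Actg2 reached at most 13.6 CPM, Aif1 12.1 CPM and Alas2 59.85 CPM, below each of the 4 libraries. Lmod1 ran from 25.45 to 43.2 CPM there and Mrc1 from 136 to 228 CPM. The myoid, macrophage and blood shares therefore need not measure the cells they are named for. In sorted bulk samples fewer cells of a type and less RNA per cell cannot be told apart.

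**Figure D5:**
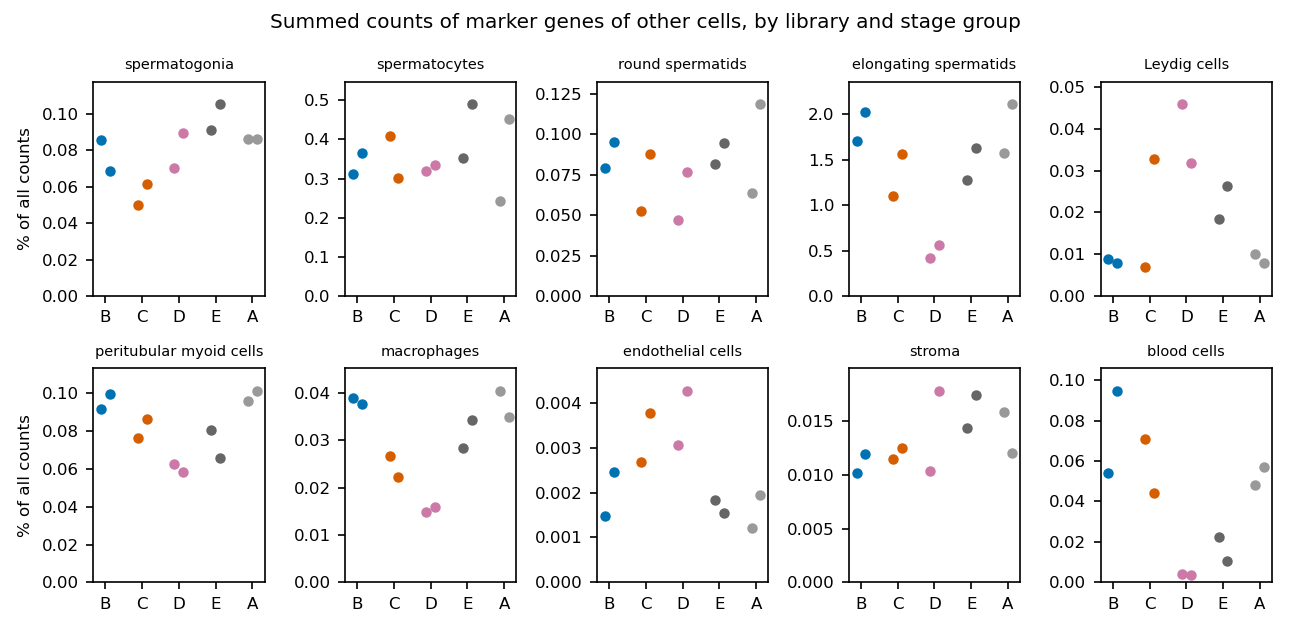
Summed share of all counts (%) for the marker genes of 10 other cell types, 1 point per library, with stage groups in the order of the cycle from B. Elongating spermatid genes take 1.71 and 2.03% in group B, 1.10 and 1.56% in group C and less in group D.

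The 8 genes kept their direction in each alternative in which they were tested. In each gene both C libraries lay on the same side of both B libraries, so a change of sign was hardly possible. The call rests on few libraries. With 1 library left out, edgeR called 80 genes without A replicate 1, 79 without A replicate 2, 82 without C replicate 1, 9 without B replicate 2, and 0 without B replicate 1, C replicate 2 or any single D or E library, where 745 to 1741 genes had an unadjusted p under 0.05; DESeq2 on all libraries called 195, and groups B and C alone gave 1, S100a1.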

How the data were processed

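Per the labels' protocols, libraries of polyadenylated RNA were made with an Ion kit for total RNA and read on an Ion Proton; the extraction text speaks of sorted germ cells, while the sorted libraries are labelled Sertoli. Per the submitters' processing notes, Bowtie, TopHat, Cufflinks and mm10 were used; the sources used here give no version, annotation, strand use or counting step. The authors deposited raw counts for 43280 gene rows in the 10 sorted libraries, and these entered every test. For the 18 NANOS2 KO libraries the deposited CPM were read from a table named FPKM whose columns have the equal sums of CPM; no test used them. Spreadsheet conversion had turned 27 symbols into dates.

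After filterByExpr and TMM scaling, counts were fitted with edgeR 4.0.16 (quasi-likelihood F test, robust off, group means only) in R 4.3.3 over all 10 sorted libraries, so that 5 groups share 1 estimate of the spread; the biological coefficient of variation was 0.268. The contrast was C minus B, with Benjamini-Hochberg adjustment over 14331 genes and calls under 0.05. SE is the log2 change divided by the root of F. Single-gene CPM use TMM-scaled totals, and list shares use the plain total. Total counts per sorted library ran from 1901743 to 5279746. The script was tested on simulated data.

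Named genes were Actn3, Rhox5, Ndrg4 and S100a1, every called gene, the 12 largest differences in each direction at an unadjusted p under 0.01 and a mean log2 CPM of at least 4, and from each of 26 lists the 2 members with the smallest p under 0.05 in each direction, or else the 2 with the highest mean; unnamed clones and ribosomal, mitochondrial and small RNA genes were left out. Sox9, Wt1, Gata4, Clu, Prm2 and S100b were added after their values were seen, and a few genes taken by the rule are left out here. The members, lists and comparison were chosen with earlier results of these data known. Other settings tried were DESeq2 1.42.0, RLE scaling, no filter on low counts, limma 3.58.1 with trend on log2(CPM + 1), groups B and C alone, the replicate number as a block, scaling by the Sertoli list, only genes that reach 1 CPM in the germ cell-free testis, the robust fit, and leaving out each library. Replicate numbers were not taken to pair the libraries, since same-numbered deviations correlated at 0.14 to 0.43 among groups A, B, D and E but at -0.11 to -0.03 between C and the others. Promoters were taken from RefSeq (GRCm38.p6) and gene positions from GENCODE M21 of GRCm38.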

Additional observations from a re-analysis of the deposited data

How the results depend on the processing

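All 8 called genes kept their direction in every alternative that tested them (Noxred1 was not tested in the setting restricted to genes that reach 1 CPM in germ cell-free testis). This was nearly fixed in advance, since in each gene both C libraries lay on the same side of both B libraries. Against the 8 called, no filter on low counts gave 315 calls (199 higher in C and 116 lower), DESeq2 gave 195 (111 and 84, with 1390 adjusted p not computed), and groups B and C alone gave 1 (1 and 0). Scaling by the Sertoli list gave 2 (2 and 0), Actn3 and S100a1, and moved the median of all genes from 0.03 to -0.08, and the robust fit gave 6 with 1 lower. All 8 were among the calls without the filter and with DESeq2. RLE scaling gave 7, limma 9 and the restriction to genes measured in the knockout 9. Leaving out 1 library gave 0 to 82 calls, 0 to 81 higher and 0 to 28 lower; where this left 1 library in a group, that library was assumed to vary like the other groups. Without C replicate 1 the split was 81 and 1, and without B replicate 2 it was 1 and 8. The replicate number as a block gave 39 calls (29 and 10), among them all 8, and the block with the numbers of group C crossed, added after the data were seen, gave 65 (40 and 25). Same-numbered deviations correlated at -0.11 between B and C, at -0.07 to -0.03 between C and A, D or E, and at 0.14 to 0.43 among A, B, D and E, so the numbers were not taken to pair the libraries. Log2 differences changed sign in 6 genes. With 1 library left out, their lowest and highest values were -0.46 and 3.89 for Clstn3, -0.62 and 2.22 for Ptgds and -0.56 and 0.48 for Jun, each lowest without C replicate 2. They were -0.37 and 0.027 for Jund, -0.18 and 0.59 for Mcm7 and -0.78 and 0.048 for Alas2, with Jund above 0 without C replicate 1, Mcm7 below 0 without B replicate 1 or C replicate 1, and Alas2 above 0 without B replicate 2. Jun was also below 0 with Sertoli-list scaling (-0.16) and limma (-0.029). The cause was not tested. At the depth of B replicate 1, 3 counts equal 1.58 CPM, so levels of Tmem140, Syt13, Tek and S100b in B are at or near that limit.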
